A study of Mus musculus with 24 samples.

Results

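A set of 9 genes for kidney transporters was followed in RNA of whole mouse kidneys among the 55335 genes counted (9 of 55335): Slc6a18, Slc6a19, Slc6a20a, Slc6a20b, Slc6a6, Slc6a8, Slc1a1, Slc16a10 and Slc5a3. They were chosen by name as carriers of amino acids, taurine, creatine and myo-inositol, with earlier results of these data known. Each symbol matched 1 gene of the annotation, and each gene passed the filter on low counts. All but one of the encoded proteins couple transport to sodium. The exception is Slc16a10, whose product carries aromatic amino acids without sodium.

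Kidneys came from 24 adult mice on the C57BL/6J background, 6 in each of 4 groups. The cKOm (male) and cKOf (female) mice carried Pex5lox/lox with the Pax8-rtTA and LC1 transgenes, so that doxycycline (DOX) turns on Cre in the tubule to remove the gene for the receptor that imports most matrix proteins into peroxisomes. Their littermates Ctrlm and Ctrlf carried Pex5lox/lox without both transgenes and drank DOX as well, so a change of genotype here includes the presence of the transgenes. Treatment with DOX began when the mice were 8 weeks old and lasted 2 weeks, and kidneys were collected another 4 weeks later; the sample labels give Zeitgeber time 9 for collection, while Zeitgeber time 3 is stated for the study's experiments. The study asked what the loss of tubular peroxisomes does to the kidney; the comparisons here are cKOm against Ctrlm, cKOf against Ctrlf, the difference between those effects, and males against females within each genotype.

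The kidney filters amino acids and small organic osmolytes freely and takes nearly all of them back in the proximal tubule. Carriers on the luminal side use the sodium gradient to pull neutral, imino and anionic amino acids into the cell, and carriers on the blood side let them out. Osmolytes such as taurine and myo-inositol are also gathered by cells of the medulla, where they balance the salt and urea outside.

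Between 19376152 and 28470831 reads were counted on genes per kidney. Levels are given as CPM, counts scaled to the effective library size, and a gene was tested if at least 1 kidney reached 1 CPM, which left 16092 genes. The transporters lay far above the smallest count that can be told from 0. Slc6a20a, the least counted of them, had between 495 and 1415 reads per kidney, and Slc6a18, the most counted, between 5332 and 24719. Differences are log2 fold changes with their standard error (SE) from edgeR's quasi-likelihood test, with p adjusted over all genes tested and called under 0.05.

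Pex5 itself was measured first. It ranged from 49.1 to 62.8 CPM (median 53.3) in Ctrlm and from 41.8 to 47.3 CPM (median 43.0) in cKOm kidneys. Every cKOm kidney was below every Ctrlm kidney. The log2 fold change of Pex5 was -0.31 in males (SE 0.08, edgeR adjusted p = 0.0219) and -0.21 in females (SE 0.08, edgeR adjusted p = 0.177), where the groups overlapped. The male call on Pex5 was lost with liver transcripts as a covariate (-0.30, edgeR adjusted p = 0.142), without Ctrlm replicate 2 (-0.27, 0.0656), without cKOm replicate 4 (-0.30, 0.0505) and without the 5 kidneys described next (-0.26, 0.382). These counts cover all exons and all cells of the kidney, so they do not measure the excised part alone, and how complete the deletion was in each sex cannot be read from them.

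Some libraries stood apart in transcripts of liver. The summed level of 11 liver transcripts, all of them tested, was between 519.5 and 996 CPM in Ctrlm replicates 1 to 4, 611 CPM in cKOm replicate 4, and at most 336 CPM in the other 19 kidneys. Albumin (Alb) was the most abundant of the list, with a mean of 113 CPM, and none of the 11 was at 0 throughout a group. Of this list, Alb, Apoa2 and Serpina1b were called lower and Serpina1a higher in cKOm than in Ctrlm kidneys. Calls on the transporters in males are therefore given also without these 5 kidneys, which leaves 2 Ctrlm and 5 cKOm kidneys, and the part of liver transcripts in the results was not tested beyond that and a covariate. The 2 Ctrlm kidneys left, replicates 5 and 6, were the least alike of the 60 pairs within groups (chi-square per degree of freedom 99.2). Among controls of the other sex, Ctrlf replicate 5 held the highest level of its group for 6 of the 9 transporters (Slc6a18, Slc6a19, Slc6a20b, Slc6a6, Slc1a1 and Slc5a3) and the lowest of Slc6a20a.

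Per kilobase of exon, the neutral amino acid carriers Slc6a18 and Slc6a19 were the most abundant of the 9 in each group. Slc6a18 had a level of 79.0 ± 11.8 CPM per kb in Ctrlm and 133 ± 24.5 CPM per kb in Ctrlf kidneys (mean ± SD, n = 6). For Slc6a19 the levels were 63.4 ± 18.8 and 61.4 ± 14.7 CPM per kb (SD, n = 6). At the other end, Slc6a20a had 7.47 ± 1.40 CPM per kb in Ctrlm and 10.1 ± 2.54 CPM per kb in Ctrlf kidneys (SD, n = 6), the lowest mean of the 9 in both. In Ctrlm kidneys the order ran Slc6a18, Slc6a19, Slc6a6, Slc6a8, Slc1a1, Slc6a20b, Slc5a3, Slc16a10 and Slc6a20a. Neighbours in this order had overlapping ranges over 6 kidneys except at 2 steps, from Slc1a1 to Slc6a20b and from Slc6a20b to Slc5a3. In cKOm kidneys the order differed at 3 places. Slc6a8 (51.6 ± 2.07 CPM per kb, SD, n = 6) stood before Slc6a6 (44.6 ± 2.71 CPM per kb) without overlap, where their Ctrlm ranges had overlapped. Slc6a19 stood before Slc6a18 there, with overlapping ranges, and Slc6a20a had moved from the last place to above Slc5a3 and Slc16a10, whose ranges met or crossed its own. Set against all tested genes in Ctrlm kidneys, Slc6a18 was above 97.3% and Slc6a20a above 69.3% of them per length.

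**Figure D1:**
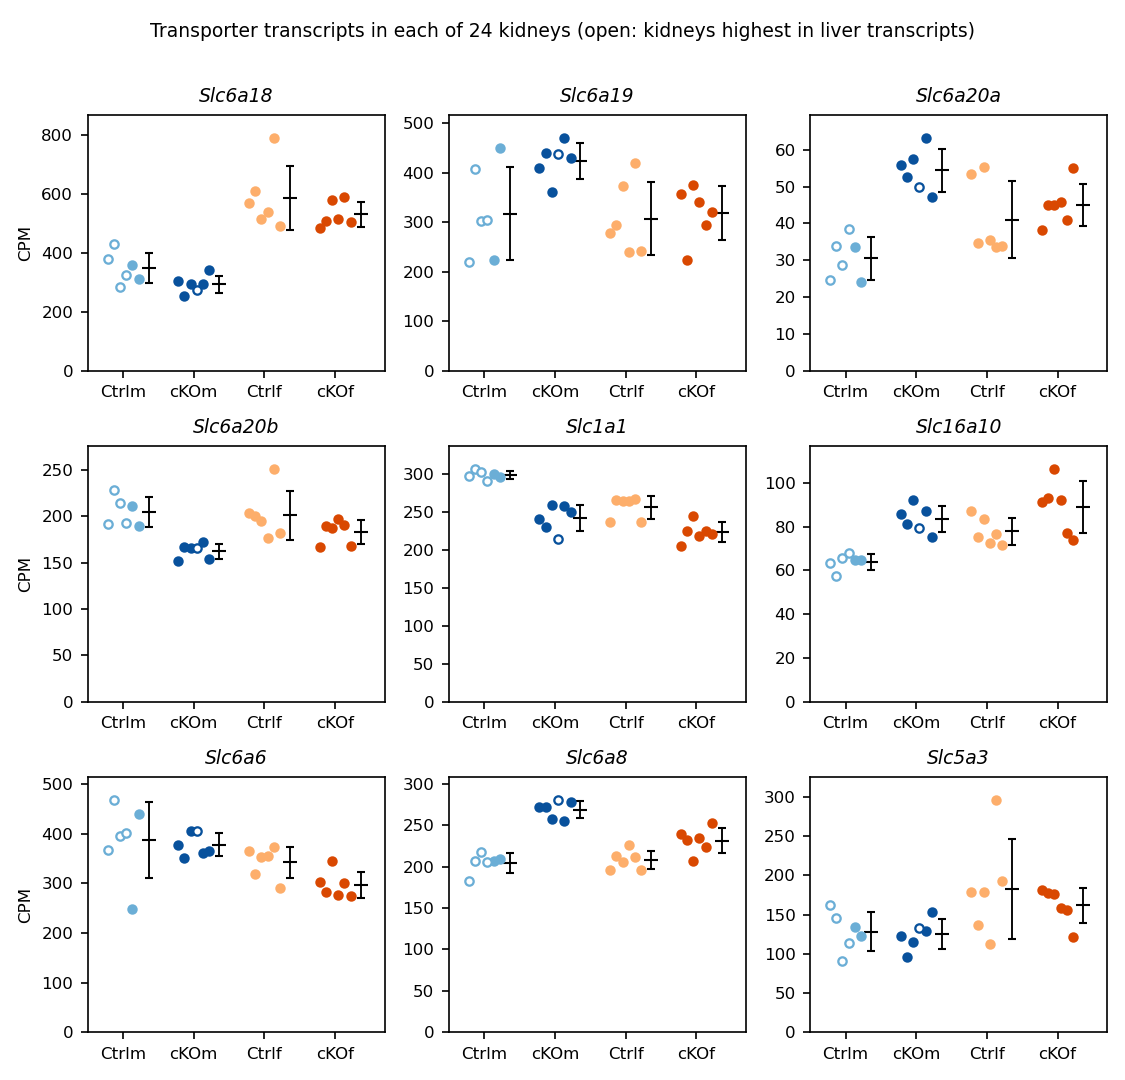
Level of the 9 transporter transcripts in CPM on the vertical axis, 1 point per kidney, by genotype and sex; the bar beside each group is the mean ± SD of 6 kidneys and open points are the 5 kidneys highest in liver transcripts. Slc6a20a is above 47 CPM in each cKOm kidney and under 39 CPM in each Ctrlm kidney, while Slc6a18 separates males from females in both genotypes.

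Loss of Pex5 in males went with opposite changes among the transporters. Of the 9, 5 were called between cKOm and Ctrlm kidneys, against 9.05% of all tested genes. Higher were 3 (4.14% of all tested genes), namely Slc6a20a, Slc6a8 and Slc16a10, and lower were 2 (4.9%), namely Slc6a20b and Slc1a1. The same 5 were those whose groups did not overlap, which held for 7.38% of all tested genes. All 9 lay above most tested genes in level per length, and these shares were not matched for level. The median log2 fold change of the 9 was -0.03, beside 0.01 for all tested genes, and the median size of the change without its sign was 0.33 beside 0.19. Without the 5 kidneys rich in liver transcripts, 1 of the 9 was called, Slc6a20a, while all genes called fell from 1456 to 599. With liver transcripts as a covariate, 4 of these 5 were called, all but Slc16a10, beside 808 of all genes. In RNA of whole kidneys, fewer cells of a type and less RNA per cell cannot be told apart.

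Slc6a20a showed the largest change of the 9, and Slc6a20b moved in the opposite direction. They are a pair of neighbouring genes, and transport of proline is attributed to the family member in humans that corresponds to them. What the product of each mouse gene carries was not measured here. Slc6a20a was between 24.02 and 38.4 CPM (median 31.1) in Ctrlm and between 47.1 and 63.1 CPM (median 54.3) in cKOm kidneys. All 6 cKOm kidneys were above all 6 Ctrlm kidneys, with a clear gap between the highest control and the lowest knockout. The log2 fold change of Slc6a20a was 0.83 (SE 0.14, edgeR adjusted p = 0.000174), a rise of 1.78-fold. It was 0.90 without the 5 kidneys rich in liver transcripts (edgeR adjusted p = 0.0192) and from 0.74 to 0.91 when each kidney in turn was left out. Slc6a20b went the other way, from between 189 and 229 CPM (median 202) in Ctrlm to between 151 and 172 CPM (median 165) in cKOm kidneys. Here every knockout kidney was below every control. Its log2 fold change was -0.33 (SE 0.08, edgeR adjusted p = 0.00829); without the 5 kidneys it was -0.34 and no longer called (edgeR adjusted p = 0.169), although both Ctrlm kidneys that were left, at 211 and 189 CPM, still lay above all cKOm kidneys.

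Slc6a20a lies on the minus strand of chromosome 9 of GRCm38 from 123634770 to 123678885, and Slc6a20b on the same strand from 123590800 to 123632565, with 2204 bases between them. Per length of exon, the share of Slc6a20a in the sum of both was between 20.998% and 29.4% (median 22.7%) in Ctrlm and between 38.6% and 43.6% (median 40.9%) in cKOm kidneys. No cKOm kidney reached down to the Ctrlm range. In females the share was between 21.9% and 37.3% (median 28.8%) in Ctrlf and between 31.0% and 40.7% (median 32.9%) in cKOf kidneys, and the ranges overlapped. The summed CPM of both genes, by contrast, overlapped between the male groups, at 213 to 263 (median 237) in Ctrlm and 200.4 to 235 (median 217) in cKOm kidneys. The plot of both genes against each other shows the male groups at opposite corners.

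**Figure D2:**
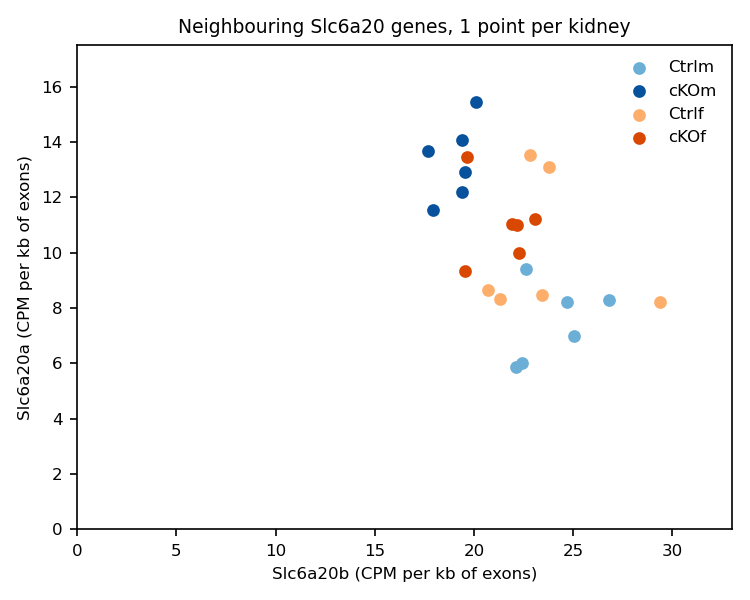
Level of Slc6a20a (vertical axis) against that of its neighbour Slc6a20b (horizontal axis), both in CPM per kilobase of exon, 1 point per kidney, coloured by group. The 6 cKOm kidneys lie between 11.5 and 15.5 CPM per kb of Slc6a20a and the 6 Ctrlm kidneys between 5.88 and 9.41 CPM per kb.

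The Slc6a20 genes are close copies, which bears on how surely reads are split between them. Over 1779 aligned bases of their longest coding sequences they were 91.5% identical, whereas Slc6a18 and Slc6a19 were 64.4% identical over 1832 bases. The longest identical run of the Slc6a20 pair was 321 bases, beside 29 bases for Slc6a18 and Slc6a19. Of all windows of 50 bases in the Slc6a20a transcript, 23.5% occurred also in that of Slc6a20b, and of those in the Slc6a20b transcript 10.1% occurred in Slc6a20a. Because the read length is not given, other lengths were counted too: with 25 bases these shares were 32.1% and 13.9%, and with 100 bases 15.2% and 6.44%. Reads that lie wholly in such windows align to more than 1 place, and the deposited counts keep these apart from the genes, so both levels rest on the parts that differ and their values are uncertain to that degree. The start of the longest shared run is given here, the point from which the pair is identical for 321 bases. The 30 bases before it are in lower case and the first 60 bases of the run in capitals. This run begins at base 874 of the coding sequence of Slc6a20a and at base 1003 of that of Slc6a20b (GENCODE M21 transcripts, GRCm38).
Slc6a20a: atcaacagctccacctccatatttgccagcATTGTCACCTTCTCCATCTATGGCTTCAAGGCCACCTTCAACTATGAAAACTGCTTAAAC
Slc6a20b: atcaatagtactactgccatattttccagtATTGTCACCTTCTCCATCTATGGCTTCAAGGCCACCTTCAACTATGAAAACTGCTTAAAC

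Upstream of the start, the neighbours differed in CpG and in G or C content; their sequences there were not aligned. RefSeq promoter windows were found for 6 of the 9 genes (GRCm38.p6); Slc6a18, Slc6a6 and Slc6a8 were not among them. In the 250 bases before the RefSeq start, Slc6a20a had 21 CpG dinucleotides and 61.2% G or C, and Slc6a20b had 0 CpG dinucleotides and 41.6% G or C. Of the 32851 windows of that length, 83.7% had fewer CpG than Slc6a20a and 7.87% had, like Slc6a20b, none. Slc5a3, Slc1a1 and Slc16a10 had 32, 27 and 21. Slc6a19 had 3, but its window, chr13:73692637-73692886, lies inside the GENCODE gene and not before its start. Because these windows are the starts of genes that moved in opposite directions, the part that also lies before the GENCODE start is printed, 5′ to 3′ on the minus strand, with each CpG in capitals: chr9:123678886-123679082 for Slc6a20a and chr9:123632566-123632788 for Slc6a20b.
Slc6a20a: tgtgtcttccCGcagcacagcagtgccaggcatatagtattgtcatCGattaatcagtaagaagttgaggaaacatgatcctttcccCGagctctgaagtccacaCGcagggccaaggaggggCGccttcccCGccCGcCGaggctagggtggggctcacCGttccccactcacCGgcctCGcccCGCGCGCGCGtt
Slc6a20b: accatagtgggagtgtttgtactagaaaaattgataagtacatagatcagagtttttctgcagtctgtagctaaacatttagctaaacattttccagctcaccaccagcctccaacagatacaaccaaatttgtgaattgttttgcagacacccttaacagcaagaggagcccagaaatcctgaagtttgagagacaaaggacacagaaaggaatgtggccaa

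Short motifs were searched on both strands of the 6 windows of 250 bases. GTTAAT, found in sites of HNF1 proteins, matched once each in Slc6a20a and Slc16a10 and occurs in 6.43% of all windows. AGAACA, found in sites of the androgen and glucocorticoid receptors, matched once, in the window inside Slc6a19 (16.1% of all windows). AGGTCA of other nuclear receptors (14%) and TATAAA of the TATA box (12.4%) matched in none of the 6. No motif shares all its letters with another, and a match describes the letters only.

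Creatine, glutamate and aromatic amino acid carriers were the other transporters that changed in males. Slc6a8, which brings creatine into cells, lay between 182 and 217 CPM (median 207) in Ctrlm and between 254 and 280.4 CPM (median 272) in cKOm kidneys. The lowest knockout was above the highest control, and the spread within both groups was narrow. Its log2 fold change was 0.39 (SE 0.06, edgeR adjusted p = 9.9e-05), or 1.31-fold. Without the 5 kidneys rich in liver transcripts it was 0.32 and not called (edgeR adjusted p = 0.0886), with both remaining Ctrlm kidneys at 207 and 209.6 CPM still under every cKOm kidney. Slc1a1, the luminal carrier of glutamate and aspartate, was between 292 and 307 CPM (median 299) in Ctrlm and between 214 and 259 CPM (median 246) in cKOm kidneys. Controls of Slc1a1 were the most alike of any gene and group here, with a coefficient of variation of 1.75%, and each lay above each knockout. The change was -0.31 on the log2 scale (SE 0.06, edgeR adjusted p = 0.00202), and -0.30 without the 5 kidneys, where it was not called (edgeR adjusted p = 0.0979). Slc16a10 carries phenylalanine, tyrosine and tryptophan across the blood side of the cell. It rose from between 57.2 and 68.1 CPM (median 64.8) in Ctrlm to between 75.4 and 92.3 CPM (median 83.4) in cKOm kidneys, again without overlap. The log2 fold change was 0.38 (SE 0.08, edgeR adjusted p = 0.00328). It was not called with liver transcripts as a covariate (0.29, edgeR adjusted p = 0.107) or without the 5 kidneys (0.34, edgeR adjusted p = 0.205).

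The other transporters did not pass the test in males. Slc6a19 encodes the main luminal carrier of neutral amino acids in the early proximal tubule, and its loss in humans causes Hartnup disorder. Its level was between 220.4 and 449.6 CPM (median 303) in Ctrlm and between 361 and 469.9 CPM (median 433) in cKOm kidneys. The controls were widely spread, with 2 of them (replicates 2 and 6) inside the knockout range and the other 4 below it. The log2 fold change was 0.42 with an SE of 0.16, so that the adjusted p was 0.162 (edgeR). Over 10 alternative settings this estimate ran from 0.26 to 0.46, and it was not called in any of them. Slc6a18, a carrier of glycine and other neutral amino acids that lies next to Slc6a19, was between 286 and 432 CPM (median 342) in Ctrlm and between 255 and 341 CPM (median 294) in cKOm kidneys. The ranges overlapped, with a log2 fold change of -0.25 (SE 0.11, edgeR adjusted p = 0.222). The taurine carrier Slc6a6 ranged from 248 to 468 CPM (median 398) in Ctrlm and from 352 to 406 CPM (median 370.5) in cKOm kidneys, with the knockouts wholly inside the range of the controls. Its log2 fold change was -0.03 (SE 0.10, edgeR adjusted p = 0.926), and it was 0.08 without the 5 kidneys rich in liver transcripts and 0.03 without Ctrlm replicate 2. Myo-inositol is taken up by the product of Slc5a3, which had 90.8 to 162 CPM (median 129) in Ctrlm and 95.8 to 153 CPM (median 126) in cKOm kidneys. Here too the knockouts lay within the control range, and the log2 fold change of -0.04 (SE 0.17, edgeR adjusted p = 0.949) turned to 0.04 without Ctrlm replicate 1 and to 0.03 without cKOm replicate 2.

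**Figure D3:**
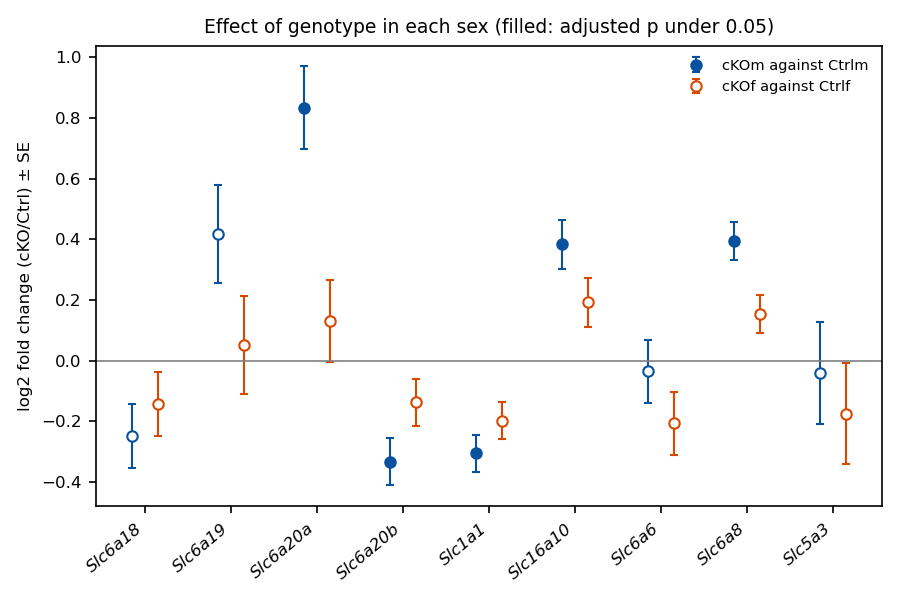
Log2 fold change of cKO against Ctrl kidneys (vertical axis, error bars are the SE) for the 9 transporters, in males and in females; filled points have an adjusted p under 0.05. The 5 filled points are all male, from -0.33 for Slc6a20b to 0.83 for Slc6a20a, and the female estimates lie between -0.21 and 0.19.

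In females none of the 9 was called by edgeR between cKOf and Ctrlf kidneys, against 0.851% of all tested genes (0.391% higher and 0.46% lower). Unadjusted p was under 0.05 for 3 of them, limma-voom called 0 and DESeq2 called 1, Slc1a1. Over all 16092 tested genes these counts were 1083, 133 and 188. Groups overlapped for all 9, while they did not for 0.559% of tested genes. The median log2 fold change of the 9 was -0.14, beside 0.00 for all genes. Slc1a1 came closest to the threshold, with 237 to 267 CPM (median 265) in Ctrlf and 205 to 245 CPM (median 223) in cKOf kidneys. All but 1 of the cKOf kidneys were below all controls; the exception, replicate 3, lay within their range. The log2 fold change of Slc1a1 was -0.20 (SE 0.06, edgeR adjusted p = 0.0629); it passed with DESeq2 (adjusted p = 0.0150) and without Ctrlf replicate 1 (-0.22, edgeR adjusted p = 0.0494), Ctrlf replicate 6 (-0.22, 0.0486) or cKOf replicate 3 (-0.23, 0.0355). Slc6a8 was between 196 and 226 CPM (median 208) in Ctrlf and between 207 and 252 CPM (median 233) in cKOf kidneys. Of these, 4 cKOf kidneys were above all controls. Its log2 fold change was 0.15 (SE 0.06, edgeR adjusted p = 0.182). For Slc16a10 the values were 71.6 to 87.3 CPM (median 75.9) in Ctrlf and 73.7 to 106 CPM (median 91.6) in cKOf kidneys, again with 4 knockouts above all controls, and a log2 fold change of 0.19 (SE 0.08, edgeR adjusted p = 0.212).

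Whether the effect of genotype differed between the sexes was tested as an interaction. How complete the deletion was in each sex cannot be read from these counts. An effect of sex and one of more or less complete deletion therefore cannot be told apart here. For Slc6a20a the male effect exceeded the female one by 0.70 on the log2 scale (SE 0.19, edgeR adjusted p = 0.0474), and it was the 1 transporter called, against 2.31% of all tested genes (0.82% higher and 1.49% lower). Slc6a20a was between 33.6 and 55.3 CPM (median 35.0) in Ctrlf and between 38.1 and 55.0 CPM (median 45.0) in cKOf kidneys. Controls of the females fell apart, with replicates 1 and 3 above 53 CPM and the other 4 under 36 CPM, so that the female groups overlapped, and the female log2 fold change was 0.13 (SE 0.13, edgeR adjusted p = 0.719). This female estimate ran from 0.07 to 0.24 when each kidney in turn was left out, and was never called. The call on the interaction lay close to the threshold. It was lost with limma-voom, RLE normalization, the stricter filter, a block for the replicate number, the liver covariate and without the 5 kidneys. There the adjusted p was from 0.0532 to 0.125, and the size, between 0.68 and 0.77, was about as large as before. The call held with DESeq2 and with every counted gene (0.0198 and 0.0495). Leaving out 1 kidney at a time, it held without Ctrlf replicates 2, 4, 5 or 6, Ctrlm replicates 2 or 4, cKOf replicate 6 or cKOm replicate 6, and was lost without any of the other 16, with the size between 0.60 and 0.78 and adjusted p between 0.0248 and 0.101. The other 8 transporters were not called, so a difference between the sexes was not shown for Slc6a8 (0.24, SE 0.09, edgeR adjusted p = 0.181), Slc6a20b (-0.20, SE 0.11, edgeR adjusted p = 0.455), Slc16a10 (0.19, SE 0.11, edgeR adjusted p = 0.491) or Slc1a1 (-0.11, SE 0.09, edgeR adjusted p = 0.636).

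Control kidneys of males and females differed in 5 of the 9 transporters, where 16.8% of all tested genes were called. The 1 gene higher in Ctrlm (8.71% of all tested genes were) was Slc1a1, and 4 were lower (8.11%). Slc6a18 differed most, at 286 to 432 CPM in Ctrlm and 493 to 790 CPM (median 554) in Ctrlf kidneys. No male reached the lowest female, and the log2 difference was -0.75 (SE 0.11, edgeR adjusted p = 6.1e-06). In cKO kidneys the gap of Slc6a18 was of similar size, -0.85 (SE 0.11, edgeR adjusted p = 2.4e-06), with 485 to 590 CPM (median 512) in cKOf kidneys. Slc1a1 was higher in Ctrlm by 0.22 (SE 0.06, edgeR adjusted p = 0.0111) and Slc16a10 lower by a log2 difference of -0.28 (SE 0.08, edgeR adjusted p = 0.0151). These 3 were the genes whose control groups did not overlap, compared with 7.35% of all tested genes. Markers of nephron segments differed between the control groups as well: of 6 for the early and middle proximal tubule 2 were higher and 2 lower in Ctrlm, of 4 for the late proximal tubule 2 were higher and 1 lower, of 4 for the thick ascending limb 1 was higher and 2 lower, and 3 of 4 for podocytes and 2 of 3 for the distal convoluted tubule were lower.

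Slc6a6 did not pass between controls (0.18, edgeR adjusted p = 0.286) except without Ctrlm replicate 5 (0.27, 0.0171). Slc6a20a and Slc5a3 were also called between the control groups, although their ranges overlapped. For Slc6a20a the log2 difference was -0.43 (SE 0.14, edgeR adjusted p = 0.0287); without Ctrlf replicate 1 or 3 or Ctrlm replicate 1, 3 or 6 it was between -0.32 and -0.41 and not called, as in the fit of the control groups alone (-0.41, adjusted p = 0.105). Slc5a3 had 112 to 296 CPM (median 179) in Ctrlf kidneys, and its difference of -0.51 (SE 0.17, edgeR adjusted p = 0.0348) leaned on the highest of them. Without that kidney, Ctrlf replicate 5, the difference was -0.30 (edgeR adjusted p = 0.172). The call on Slc5a3 was lost also with limma-voom (adjusted p = 0.0552), in the fit of the control groups alone (0.113) and without Ctrlf replicate 3 or 6, Ctrlm replicate 3, 4 or 6, or cKOm replicate 5, with adjusted p from 0.0506 to 0.0945. With a block for the replicate number, neither Slc6a20a nor Slc5a3 was called between controls. Liver transcripts were far higher in Ctrlm than in Ctrlf kidneys, with 10 of the 11 called. With their level as a covariate, or without the 5 kidneys, Slc6a18 was the 1 transporter still called between controls (edgeR adjusted p = 0.00218 and 0.00162). The difference in Slc1a1 was 0.28 and 0.24 there, no smaller than before, and that in Slc16a10 was -0.11 and -0.24. Slc6a20a had -0.45 and -0.48, also no smaller, and Slc5a3 had -0.32 and -0.48.

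Between cKOm and cKOf kidneys 3 of the 9 were called, against 8.14% of all tested genes (4.14% higher and 4% lower), and the same 3 did not overlap, against 6.77%. They were Slc6a18, described above, Slc6a8 and Slc6a6. Slc6a8 was higher in cKOm by 0.22 on the log2 scale (SE 0.06, edgeR adjusted p = 0.0260), whereas the control groups differed by -0.02 (SE 0.06, edgeR adjusted p = 0.859). Slc6a6 ran from 275 to 344 CPM (median 292) in cKOf kidneys, all of them under the lowest cKOm kidney, with a log2 difference of 0.35 (SE 0.10, edgeR adjusted p = 0.0360). The calls on both were lost in several settings. Slc6a6 was lost without cKOf replicate 1, 2, 4, 5 or 6 or cKOm replicate 1, 3 or 4, with a difference of at least 0.32 and adjusted p from 0.0523 to 0.0796, and Slc6a8 without cKOf replicate 3 or 5 or cKOm replicate 2, 4 or 6, with a difference from 0.19 to 0.21 and adjusted p from 0.0523 to 0.0673. Without the 5 kidneys rich in liver transcripts their adjusted p was 0.0783 and 0.0819, with the liver covariate 0.0810 and 0.0772, and with every counted gene 0.0515 and 0.103, while the differences stayed between 0.32 and 0.35 for Slc6a6 and between 0.20 and 0.22 for Slc6a8. A block for the replicate number ended the call on Slc6a6 as well. Slc6a19, not called otherwise (0.41, edgeR adjusted p = 0.118), passed with the liver covariate (0.55, 0.0441) and in the fit of the cKO groups alone (0.41, 0.0155), where Slc5a3 passed as well (-0.38, 0.0336). Among markers, 3 of 4 for principal cells were lower in cKOm than in cKOf kidneys, and of the 10 for the proximal tubule 2 were higher and 3 lower.

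Position gives a few of these genes company. Slc6a18 and Slc6a19 lie on the minus strand of chromosome 13, from 73661752 to 73678023 and from 73679745 to 73704865, with 1721 bases between them. The other members are each alone, Slc6a6 on chromosome 6, Slc6a8 on X, Slc16a10 on 10, Slc5a3 on 16 and Slc1a1 on 19. Among the nearest tested genes on either side of the 9, 2 that are not transporters of the set were called in males, out of 14, where 9.05% of all tested genes were. Plpp6, which lies 49992 bases past Slc1a1, rose by a log2 fold change of 0.55 (SE 0.08, edgeR adjusted p = 3.5e-05) where Slc1a1 fell. Mfsd4b1, 8263 bases from Slc16a10, had a log2 fold change of -0.67 (SE 0.08, edgeR adjusted p = 2.0e-06) where Slc16a10 rose. Neither was called in females. The other nearest tested genes, Tert, Slc12a7, Lztfl1, Limd1, Gm45218, Grip2, Pnck, Bcap31, Glis3, Gm31992, Atp5o and Gm16310, were not called in either sex.

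Some exons of the transporters overlap other genes, and whether strand was used in counting is not given in the sources used here, although the library kit keeps strand. Slc1a1 shares 2631 exon bases with 4430402I18Rik on the opposite strand, which had a mean of 11.1 CPM in Ctrlm against 299 CPM for Slc1a1. Slc6a20b shares 1800 exon bases with Sacm1l, also opposite, at 111 CPM in Ctrlm and 112 CPM in cKOm kidneys. Slc5a3 shares 159 exon bases with Mrps6 on its own strand. Slc6a20a shares 563 exon bases with Gm17120 and 22 each with Ccr9 and Gm17200, all opposite and all under 1 CPM in Ctrlm, and Slc6a6 and Slc5a3 share few with the nearly silent Gm44981 and Gm49711. Sacm1l, 4430402I18Rik, Mrps6 and Ccr9 were not called in either sex. Reads that cannot be given to 1 gene were set aside by the counting as ambiguous, in each kidney at most 1.43% of the sum of these reads and those on genes.

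Some transcripts for proteins that partner with these carriers, or are related to such partners, were lower in males. Of the 9 on this list, whose roles differ and need not all favour transport, 4 were called lower and 0 higher in cKOm kidneys, with a median log2 fold change of -0.32, and 0 were called in females, where the median was -0.05. Of all tested genes, 4.9% were called lower in males and 0.851% were called in females. Cltrn (formerly Tmem27) encodes collectrin, which Slc6a19 and its relatives need in the kidney to reach the surface. Its median went from 828 CPM in Ctrlm to 619 CPM in cKOm kidneys, a log2 fold change of -0.57 (SE 0.12, edgeR adjusted p = 0.00274), without overlap. Ace, an enzyme of the same family as the gut partner of Slc6a19, fell from a median of 267 to 169.6 CPM (-0.77, SE 0.12, edgeR adjusted p = 8.6e-05). Arl6ip1 fell by 0.63 on the log2 scale (SE 0.10, edgeR adjusted p = 7.6e-05) and the scaffold Slc9a3r1 by 0.41 (SE 0.10, edgeR adjusted p = 0.0159). Calls on this list were not examined with the liver covariate or without the 5 kidneys rich in liver transcripts.

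Relatives of the transporters moved both ways. Of 14 other Slc6 genes, 8 were tested; Slc6a17 (log2 fold change 0.57, SE 0.11, edgeR adjusted p = 0.00153) and Slc6a7 (1.66, SE 0.41, edgeR adjusted p = 0.0145, under 1 CPM in the median of each group) were higher in cKOm kidneys and 0 were lower. In females 0 were higher and 2 lower, the neutral amino acid carrier Slc6a15 (-1.15, SE 0.24, edgeR adjusted p = 0.00241) and the serotonin carrier Slc6a4 (-0.64, SE 0.17, edgeR adjusted p = 0.0284). Among 30 tested of 31 other amino acid carriers, 4 were higher and 5 lower in cKOm kidneys, and 1 was lower in cKOf kidneys. Beside these stand 4.14% of all tested genes higher and 4.9% lower in males, and 0.46% lower in females. Slc7a12 rose from a median of 9.85 to 107 CPM (log2 fold change 3.25, SE 0.34, edgeR adjusted p = 3.4e-07), and Slc7a13, a cystine carrier of the late proximal tubule, fell from 826 to 170.2 CPM (-2.26, SE 0.36, edgeR adjusted p = 0.000118). Slc1a4 fell too (-0.91, SE 0.14, edgeR adjusted p = 9.6e-05), whereas its relative Slc1a2 rose (1.12, SE 0.22, edgeR adjusted p = 0.00137). Slc7a2, a carrier of cationic amino acids, was the 1 called in females, with a log2 fold change of -0.80 (SE 0.18, edgeR adjusted p = 0.00553). It was among those called lower in males too (-0.65, SE 0.18, edgeR adjusted p = 0.0300). For these relatives too, male calls were not examined with the liver covariate or without the 5 kidneys rich in liver transcripts.

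Genes that make or break down what the transporters carry were mostly lower where they were called in males. The median male log2 fold change was 0.04 for the list of taurine, creatine and inositol metabolism and -0.21 for amino acid breakdown, beside 0.01 for all tested genes. Of 11 genes of taurine, creatine and inositol metabolism, 0 were higher and 2 lower in cKOm kidneys, and 0 were called in cKOf kidneys; 9.05% of all tested genes were called in males and 0.851% in females, and no list was tested as a whole. The 2 are consecutive enzymes of taurine synthesis. Csad went from between 150 and 195 CPM in Ctrlm to a median of 89.4 CPM in cKOm kidneys (log2 fold change -0.95, SE 0.08, edgeR adjusted p = 1.2e-08), and Cdo1 from a median of 138 to 85.2 CPM (-0.62, SE 0.10, edgeR adjusted p = 0.00013), both without overlap. The taurine carrier Slc6a6 was not called in the same kidneys. Of 20 genes of amino acid breakdown, 1 was higher and 6 lower in males and 0 higher and 1 lower in females. Of all tested genes 4.14% were higher and 4.9% lower in males, and 0.391% higher and 0.46% lower in females. Hpd, an enzyme of tyrosine breakdown, was lower in both sexes, by a log2 fold change of -1.78 in males (SE 0.30, edgeR adjusted p = 0.000216) and -1.47 in females (SE 0.29, edgeR adjusted p = 0.00135). Bckdha (-0.51, SE 0.09, edgeR adjusted p = 0.000742) and Hgd (-0.38, SE 0.08, edgeR adjusted p = 0.00414) fell and Shmt1 rose (0.44, SE 0.09, edgeR adjusted p = 0.00223) in males. Male calls on these enzymes were not examined with the liver covariate or without the 5 kidneys rich in liver transcripts. How far they depend on those kidneys was not tested. Of 11 genes of the response to tonicity 0 were called in either sex, and with so few genes at the shares just given this shows little about them.

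Several markers of the tubule segments that hold these carriers were called lower in males, though not all of them. Of 6 markers of the early and middle proximal tubule, 3 were called lower, while Slc5a12 had a log2 fold change of 0.63 (SE 0.19, edgeR adjusted p = 0.0512) without overlap and Slc5a2 one of 0.10 (SE 0.10, edgeR adjusted p = 0.723). The summed level of the 6 was between 7919 and 8992 CPM in Ctrlm and between 6408 and 7240.5 CPM in cKOm kidneys. The most abundant was Slc34a1, and none was at 0. Of 4 markers of the late proximal tubule, 3 were called lower, Slc22a7, Slc7a13 and Slc27a2, the last the most abundant. The sum of the 4 was between 4549 and 5925 CPM in Ctrlm and between 2618 and 3256 CPM in cKOm kidneys. Slc7a13, whose median fell from 826 to 170 CPM, is part of that fall. Its level depends strongly on sex, with a median of 1.36 CPM in Ctrlf and 0.90 CPM in cKOf kidneys. In females 0 of these 10 markers were called, which shows little for Slc7a13 at so low a level. Of all tested genes, 4.9% were lower in males and 0.851% were called in females. The part of these marker changes in the results on Slc6a20a, Slc6a20b, Slc6a8, Slc1a1 and Slc16a10 was not tested. Nor were the calls on the markers examined with the liver covariate or without the 5 kidneys rich in liver transcripts.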

How the data were processed

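RNA of 24 whole kidneys was sequenced, 6 per combination of genotype and sex, and the groups were taken from the labels. The authors deposited 1 table of whole-number counts per kidney, made per the submitters' notes with cutadapt 1.8, STAR 2.5.3a and HTSeq 0.9.1 on GRCm38; read length and the strand setting of the counting are not given. Each table held 55335 genes and 5 closing lines, which were left out of library sizes: alignments that were not unique made up 26.9% to 34.8% of everything in a kidney's table, reads outside genes 6.41% to 9.25% of unique alignments, and ambiguous reads 1.10% to 1.43% of the sum of ambiguous reads and reads on genes. Names, positions and exon lengths came from GENCODE M21, which held 55154 of the genes; 29671 had a count. A median of 21592602 reads per kidney was on genes. Within groups, kidneys varied beyond counting noise (chi-square per degree of freedom 9.83 to 99.2 over 60 pairs), so errors rest on the spread between mice.

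Tests covered genes that reached 1 CPM in 1 or more kidneys, in R 4.3.3 with edgeR 4.0.16 (TMM, 1 model of the 4 group means, quasi-likelihood F tests). Benjamini-Hochberg adjustment pooled the tests of cKO against Ctrl in both sexes; the interaction and each comparison of the sexes were adjusted on their own over all genes, with a threshold of 0.05. Comparisons share groups and are not independent of each other. SE was the log2 fold change divided by the square root of F. The scripts were tested on simulated counts. Alternatives were limma-voom (limma 3.58.1), DESeq2 1.42.0, RLE normalization, every counted gene, at least 1 CPM in at least 6 samples, a fit of the compared groups alone, separate adjustment for males and females, a block for the replicate number, the mean log2 CPM (prior count 2) of liver markers as a covariate, and each kidney left out in turn. Leaving out the 5 kidneys highest in liver transcripts was added after seeing the data.

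The members and lists were chosen with earlier results of these data known. Lists were proteins that partner with the carriers, other Slc6 genes, other amino acid carriers, genes of the tonicity response, of taurine, creatine and inositol metabolism and of amino acid breakdown, and markers of nephron segments, podocytes, endothelium, immune cells, fibroblasts, fat, adrenal, liver and the interferon response. Named are all members and Pex5, up to 4 called genes per pathway list and sex with the smallest adjusted p, the nearest tested genes on either side of a member, genes sharing its exons, and the 3 genes most correlated with it. Other genes named were chosen after their values were seen. Sequences were aligned with Biopython 1.88; plots were drawn with matplotlib 3.10.9, and tables made with numpy 2.4.6 and pandas 2.3.3 in Python 3.11.15.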

Additional observations from a re-analysis of the deposited data

Results flagged for a closer look

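A pair of kidneys stood far from the other 5 of their group by Dixon's test on 1 of the transporters. Slc6a20b was 251 CPM in Ctrlf replicate 5, the highest of its group, and Slc6a8 was 182 CPM in Ctrlm replicate 1, the lowest of its group. The test was made on 40 groups, and chance picks out about 1 in 20.

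The interaction of genotype and sex was called (edgeR adjusted p under 0.05) for the genes named here, as it was for 2.31% of all tested genes. Values are the male minus the female log2 fold change. Slc6a20a had 0.70, a call close to the threshold that was lost in several settings, and Ace had -0.78. Other settings were not examined for Ace or the genes that follow. Among other Slc6 genes, Slc6a4 had 1.06, Slc6a15 1.79 and Slc6a17 0.58. Slc7a12 had 3.59, the largest of these. Of the enzymes of taurine synthesis, Csad had -0.995 and Cdo1 -0.61. The causes were not tested.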

How the results depend on the processing

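All 5 transporters called in males kept their direction in every setting, and the 5 calls held without any single kidney. With liver transcripts as a covariate, 808 of all genes were called in males, 255 for the interaction and 1247 between Ctrlm and Ctrlf. Of the members, 0 were called for the interaction and 1 between control sexes. Without the 5 kidneys highest in liver transcripts, a setting added after seeing the data that leaves fewer samples, the members called were 1 in males, 0 for the interaction, 1 between Ctrlm and Ctrlf and 1 between cKOm and cKOf; of all genes 599 were called in males, 83 in females and 1570 between Ctrlm and Ctrlf, and Slc6a6 in males was 0.083 and Slc6a8 between control sexes 0.027. DESeq2 called 1 member and 188 of all genes in females, and 574 of all genes for the interaction. Adjustment within each sex left 43 of all genes in females. The interaction had 0 members with limma-voom, with RLE normalization and with at least 1 CPM in at least 6 samples. Of all genes 312, 366 and 373 were called for it there. In fits of only the groups compared, 3 members were called between control sexes and 5 between cKO sexes. Of all genes, 2078 of 15679 and 1675 of 15599 were called there. With every counted gene 1 member was called between cKO sexes, beside 1123 of 29671 genes. Pex5 between cKO sexes was -0.0019 with the stricter filter and -0.0059 with the liver covariate. The causes were not tested.

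With the replicate number as a block, the members called were 5 in males, 0 in females, 0 for the interaction, 3 between control sexes and 2 between cKO sexes, and of all genes 1268, 110, 271, 2415 and 1140; not called there were Slc6a20a for the interaction (0.69), Slc6a20a (-0.42) and Slc5a3 (-0.49) between control sexes and Slc6a6 (0.35) between cKO sexes. Correlations of the deviations of same-numbered kidneys ran from -0.20 to 0.12, and not every kidney correlated best with its own number, so the numbers were not taken as pairing.

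Leaving out 1 kidney at a time gave 5 members called in males, 0 to 1 in females, 0 to 1 for the interaction, 3 to 6 between control sexes and 1 to 3 between cKO sexes, and of all genes 1152 to 1726, 108 to 173, 282 to 476, 2333 to 2936 and 1040 to 1506. Log2 fold changes that changed sign were those of Slc6a6 (-0.13 to 0.028) and Slc5a3 (-0.12 to 0.037) in males, Slc6a19 (-0.021 to 0.16) and Slc5a3 (-0.29 to 0.0197) in females, Slc5a3 for the interaction (-0.083 to 0.23), Slc6a19 (-0.060 to 0.18), Slc6a20b (-0.012 to 0.12) and Slc6a8 (-0.042 to 0.0194) between control sexes, and Pex5 between cKO sexes (-0.031 to 0.039). None of these was called. Over all settings, results on single genes kept direction and side of the threshold 1553 times, passed it newly 8 times, lost it 76 times and reversed 23 times.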

Other observations

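Genes that varied most like each transporter were sought among 9438 genes over 24 kidneys, by Pearson r of log2 CPM after the mean of each group was taken off; this is a description without a test. The closest were Ndfip2, Arl1 and Sult1d1 for Slc6a18 (r from 0.802 to 0.823), Cnnm3, Clec2h and Fmo2 for Slc6a19 (0.798 to 0.872), Gimap6, Uri1 and Aass for Slc6a20a (0.711 to 0.822) and Ube2h, Gk and Eny2 for Slc6a20b (0.809 to 0.875). They were Farp2, Ndst2 and Axl for Slc6a6 (0.817 to 0.825), Cadm4, Abhd4 and Myh4 for Slc6a8 (0.759 to 0.837), Xrcc4, Zfp110 and Pik3r4 for Slc1a1 (0.645 to 0.689), Nbr1, Nqo2 and Patj for Slc16a10 (0.764 to 0.772) and Srsf7, Rc3h2 and Mex3c for Slc5a3 (0.829 to 0.845).

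Of the marker lists beyond the proximal tubule and liver, 1 of 4 genes of the thick ascending limb was called higher in cKOm kidneys, Slc12a1, and of 4 genes of intercalated cells 1 was higher and 1 lower; in cKOf kidneys 1 gene of intercalated cells, Slc4a1, was lower. For the distal convoluted tubule, principal cells, podocytes, endothelium, immune cells, fibroblasts, fat, adrenal and the interferon response 0 genes were called in either sex by edgeR. Of the 4 adrenal genes only 1 was tested. Over all tested genes 4.14% were higher and 4.9% lower in males and 0.851% were called in females, so that small lists with 0 or 1 call show little. Single kidneys stood out in 3 of these lists: Ctrlf replicate 1 had 1136 CPM of immune cell markers and 444 CPM of interferon response genes, where the other Ctrlf kidneys had at most 236 and 162 CPM, and Ctrlf replicate 6 had 356 CPM of fat markers, where the others had at most 17.4 CPM. Fat markers were also high in cKOm replicate 1, at 122 CPM, where the other cKOm kidneys had at most 35.4 CPM.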
